A study of Mus musculus with 199 samples.

Results

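KP1 is a mouse small-cell lung cancer line whose cells lack both alleles of the tumour suppressors Rb1 and Trp53 (genotype Rb1-/-Trp53-/-), and every group described here carries that genotype. The comparison sets 31 libraries of KP1 colonies from the livers of F1 mice, which have a competent immune system, against 28 libraries of KP1 cells kept as spheroids in culture. These 59 libraries were chosen by their sample titles out of 199 in the series, without pool-and-split controls or bulk libraries. Each library holds 10 cells cut from a frozen section by laser capture microdissection, and its poly(A) RNA was copied, amplified by PCR and tagmented. Colonies of the same line from livers of nude mice, which lack mature T cells (33 libraries), and pool-and-split controls, which are 10-cell equivalents split from pooled material (24 from F1 livers and 20 from spheroids), are used below only beside this comparison. All KP1 groups derive from 1 line, and the labels name neither animals nor cultures. Each p-value between captures therefore measures the spread between captures, which may be technical. In the pool-and-split controls it measures the spread between splits of pooled material. The F1 captures carry the numbers 1 to 33 without 2 and 8, and were also examined as a set of 26 (numbers 1 to 28) and a set of 5 (numbers 29 to 33).

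Small-cell lung cancer resembles the neuroendocrine cells of the airway lining. Such cells pack peptides and chromogranins into dense secretory granules, and their identity is kept by transcription factors such as INSM1. The tumour spreads early to the liver, where its cells meet another supply of oxygen, lipids and amino acids than in culture medium. The programmes described below cover this identity, contact with matrix, energy and lipid metabolism, protein synthesis, the cytoskeleton and division.

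Library depth was similar in both groups, with 1646338 to 5432838 gene counts in F1 libraries and 3775173 to 5308745 in spheroid libraries. At a common depth of 1646338 counts, a median of 8145 genes was detected per F1 library and 8995.5 per spheroid library (two-sided permutation test, adjusted p = 0.00326 over 8 such tests). ERCC spike-in transcripts took 0.639% to 11.2% of the counts in F1 libraries. In spheroids they took at least 0.1% in only 9 libraries, numbers 11 to 19, so the amount of spike-in per read and the group cannot be told apart outside those 9. The F1 libraries 29 to 33 held a lower share of counts in pseudogenes than numbers 1 to 28 (median 6.90% against 9.53%, exact permutation test, adjusted p = 0.000636) and a higher share in mitochondrially encoded genes (median 3.66% against 1.45%, exact permutation test, adjusted p = 6.28e-05). Liver RNA was present in the colonies. Summed hepatocyte markers (26 genes) ranged from 5.14 to 2812 CPM (counts scaled to a common gene total per library) in F1 libraries and from 6.60 to 333 in spheroids, where 17 of the 26 markers, Alb among them, were at 0. Erythroid markers (14 genes) summed to a median of 1622 CPM against 18.1 CPM, and macrophage markers (25 genes, 22 of them at 0 in spheroids) to 126 CPM against 13.6 CPM. In bulk captures of this kind, a change in the number of host cells and a change in RNA per tumour cell cannot be told apart. Rb1 reads had a median of 4.81 CPM in F1 libraries and 19.4 CPM in spheroids, and Trp53 reads 1.56 and 2.00 CPM. Neither passed the test (adjusted p = 0.169 and 0.414, edgeR). The table does not say which exons these reads come from, so they do not check the deletions.

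With edgeR's quasi-likelihood test and Benjamini-Hochberg adjustment over 7309 genes, 565 were called higher in F1 colonies (7.73% of those tested) and 359 lower (4.91%) at an adjusted p under 0.05. Over all genes tested, the median log2 fold change was 0.22 with this scaling (TMM), and it was -0.02 with library totals alone, which called 261 genes higher (3.57%) and 441 lower (6.03%). A limma-voom fit, which tests mean log values, called 414 higher (5.66%) and 1329 lower (18.2%), and DESeq2 called 907 higher (12.4%) and 510 lower (6.98%). At an unadjusted p under 0.05 edgeR had 16.9% of genes higher and 10.0% lower, and 8.89% and 9.67% in numbers 29 to 33 alone. Counts within lists are read against these shares. The CPM medians were lower in F1 colonies for 5262 of the 7309 genes, and 40 of the 565 genes called higher had a lower median while their scaled means were higher. Changes of lists are read against the median of all genes. Numbers 1 to 28 alone against spheroids gave 9.95% called higher and 4.98% called lower. Numbers 29 to 33 alone gave 2.14% and 1.51%. Set directly against each other, numbers 29 to 33 and 1 to 28 differed in 18 genes higher (0.183% of 9843) and 10 lower (0.102%). In simulated data an 8-fold change was recovered in 21.2% of genes with the libraries of the set of 5, and in 90.9% with all 31. Both sets are part of the 31 libraries and share the spheroid libraries, so their values are given side by side and not as independent evidence.

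Nov (CCN3, a secreted matricellular protein, ENSMUSG00000037362, chr15:54745702-54754039 on GRCm38) stood between 117 and 1507 CPM in spheroids, median 335. In F1 numbers 1 to 28 it stood between 0 and 25.9 CPM, median 2.63, and in numbers 29 to 33 at 48.5, 14.7, 64.9, 0.818 and 30.2 CPM. No F1 library reached the lowest spheroid library. The log2 fold change was -5.57 (SE 0.52, edgeR adjusted p = 5.17e-13), with -6.26 in numbers 1 to 28 and -4.06 in numbers 29 to 33. Id3, an inhibitor of basic helix-loop-helix transcription factors, had 8.63 to 474 CPM in spheroids, median 203. It had no counts in 18 of 31 F1 libraries. Numbers 29 to 33 held 0.427, 0, 0, 26.2 and 10.5 CPM, and the fold was -4.60 (SE 0.70, edgeR adjusted p = 1.9e-06). In 23 F1 libraries Id3 lay below every spheroid library.

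Mfsd2a, a transporter of lysophosphatidylcholine lipids, fell from a spheroid median of 215 CPM to 2.83 CPM (log2 fold change -4.73, SE 0.62, edgeR adjusted p = 3.23e-08). Its ranges overlapped, 2.82 to 734 CPM in spheroids and 0 to 92.3 CPM in F1 colonies, with numbers 29 to 33 at 0.641, 7.48, 30.3, 21.0 and 12.3 CPM. Nt5e (CD73, a surface enzyme that makes adenosine) was detected in 27 of 28 spheroid libraries, median 18.6 CPM, and in 11 of 31 F1 libraries, where the highest value was 7.19 CPM. Its fold was -5.85 (SE 0.76, edgeR adjusted p = 1.81e-08). Spheroids 11 to 19 had a median of 2.63 CPM, and it did not pass the filter on low counts in the fit against these 9 alone. Dnajc12, a co-chaperone of the J-domain family, was detected in all 28 spheroid libraries, median 47.8 CPM, and in 6 of 31 F1 libraries. The highest F1 value, 46.2 CPM, was in number 29, and numbers 30 to 33 had no counts. Svil, which encodes the actin-binding protein supervillin, fell from a median of 41.2 to 1.78 CPM (log2 fold change -3.31, SE 0.56, edgeR adjusted p = 1.42e-05), with 23 F1 libraries below the lowest spheroid library.

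Krt8, a keratin of simple epithelia, was detected in 16 of 28 spheroid libraries, median 0.728 CPM and highest 172. It was detected in every F1 library. The set of 26 held 15.4 to 812 CPM, median 269.7, and numbers 29 to 33 held 667, 238, 654, 886 and 343 CPM. The log2 fold change was 4.81 (SE 0.71, edgeR adjusted p = 6.98e-07), and 24 F1 libraries exceeded every spheroid library. Hepatocytes and bile duct cells also express Krt8. In the 11 F1 libraries with little hepatocyte RNA the fold was 4.60, and with a hepatocyte term in the model it was 4.83. Of 9 bile duct cell markers 7 were detected in each group, and the keratin Krt19 and the chloride channel Cftr were at 0 in both. Their summed level ranged from 0 to 609.9 CPM in F1 colonies, median 34.7, with a median of 231 CPM in numbers 29 to 33, and from 0 to 512 CPM in spheroids, median 50.5. The part of bile duct cell RNA in the Krt8 value was not tested. Krt18, its usual partner, did not pass the test, with medians of 33.5 CPM in F1 colonies and 153 CPM in spheroids (log2 fold change -1.08, edgeR adjusted p = 0.0678).

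Lgals1, the secreted lectin galectin-1, stood between 0 and 173 CPM in spheroids, median 47.7. The set of 26 stood between 7.95 and 612 CPM, median 287, and numbers 29 to 33 at 209, 406, 445, 935 and 679 CPM. The groups overlapped, though 26 F1 libraries were above every spheroid library, and the fold was 2.69 (SE 0.39, edgeR adjusted p = 5.59e-07). Of the mesenchymal and matricellular list, 10 of 32 genes were tested. The 4 called higher were Lgals1, Fn1, S100a10 and Vim, and the 1 called lower was Nov. Fn1, which encodes the matrix protein fibronectin and is also made by hepatocytes, had medians of 9.25 CPM and 1.53 CPM (log2 fold change 2.95, SE 0.74, edgeR adjusted p = 0.00399). Vim, an intermediate filament of mesenchymal and many other cells, had medians of 3.71 CPM and 0.226 CPM. Its call was lost in numbers 1 to 28 alone (edgeR adjusted p = 0.0508), and its sign turned to -0.01 in the F1 libraries with little hepatocyte RNA. Summed stellate, fibroblast and smooth muscle markers had a median of 184 CPM in F1 libraries and 69.2 CPM in spheroids. Their part in the Fn1 and Vim values was not tested.

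**Figure D1:**
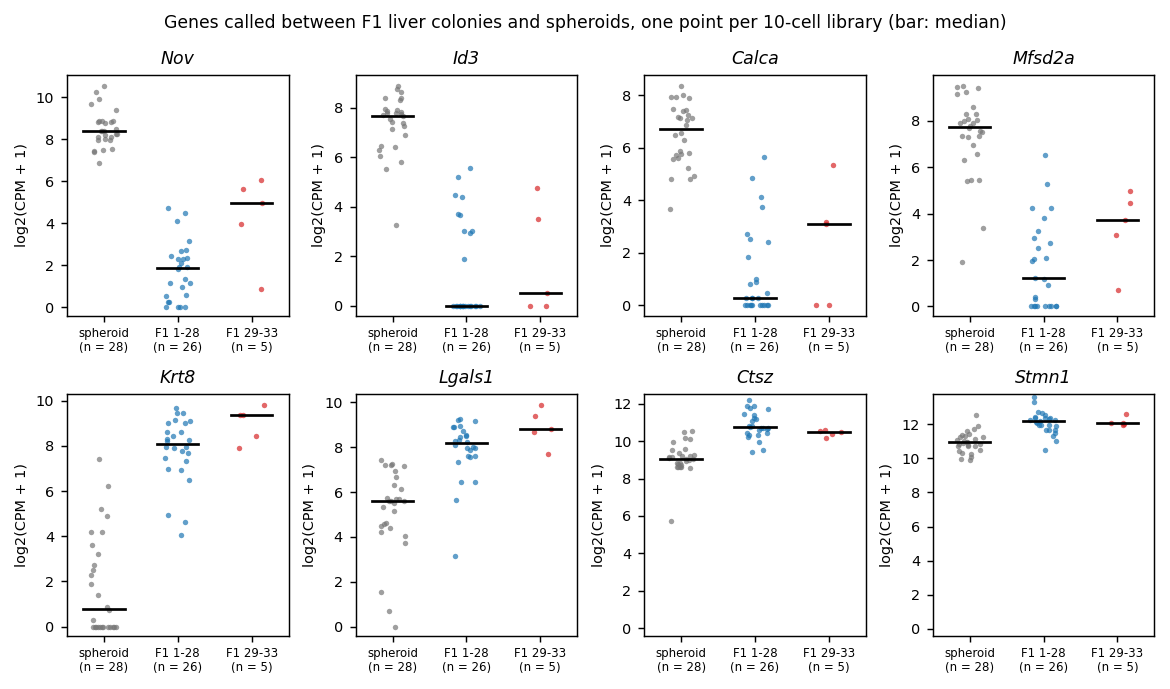
Level of 8 genes on a log2(CPM + 1) axis in the 28 spheroid libraries, the 26 F1 liver libraries numbered 1 to 28 and the 5 numbered 29 to 33, 1 point per 10-cell library with a bar at the median. Nov, Id3, Calca and Mfsd2a are low and Krt8 and Lgals1 high in both F1 sets, while Ctsz and Stmn1 shift by less.

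Neuroendocrine genes were called in both directions, in a balance that depended on the scaling. Of 30 tested genes on a list of 45, 5 were called lower and 4 higher, and the list's median log2 fold change of 0.20 was close to the 0.22 of all genes. With limma-voom 10 were lower and 3 higher (18.2% and 5.66% over all genes), and with library totals 5 and 1 (6.03% and 3.57%). The summed small-cell lung cancer markers (12 genes) had a median of 1875 CPM in F1 colonies and 2040.4 CPM in spheroids, and 11 of the 12 were detected in both. Dlk1 was the 1 marker at 0 in both groups, and the vesicle protein Syp was at a median of 0 in both.

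The genes called lower included a peptide hormone, a transcription factor and genes of secretory granules and vesicles. Calca, which encodes calcitonin and the peptide CGRP of airway neuroendocrine cells, ranged from 11.5 to 329 CPM in spheroids, median 104. It had a median of 0.218 CPM in F1 colonies, with 39.7, 7.94, 7.56, 0 and 0 CPM in numbers 29 to 33, and 26 F1 libraries were below every spheroid library (log2 fold change -4.22, SE 0.67, edgeR adjusted p = 4.84e-06). Insm1, a zinc finger transcription factor of these cells, fell from 26.5 to 3.71 CPM (log2 fold change -1.67, SE 0.49, edgeR adjusted p = 0.0147). Chga, which encodes the granule protein chromogranin A, fell from 569.6 to 187 CPM (-0.89, SE 0.26, edgeR adjusted p = 0.0157), and its highest value of all, 1162 CPM, was in F1 number 30. Snap25, a component of the vesicle fusion machinery, fell from 64.7 to 18.2 CPM (-1.37, SE 0.37). Insm1, Chga and Snap25 were not called in numbers 29 to 33 (folds -0.88, -0.25 and -1.14). Calca remained called there, at -3.69.

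The genes called higher were Cplx2 (complexin, which clamps vesicle fusion; medians 101 and 21.2 CPM, log2 fold change 1.80, SE 0.43), Uchl1 (a neuronal deubiquitinase; 942 and 829 CPM, 0.70, SE 0.18), the neuronal RNA-binding protein gene Elavl3 (17.6 and 4.23 CPM, 1.80, SE 0.54) and the granule protein gene Pcsk1n (10.7 and 4.84 CPM, 1.95, SE 0.60). In numbers 29 to 33 Cplx2 had a fold of 2.17 and Uchl1 of 0.84, while Elavl3 stood at -0.15 and Pcsk1n at -0.30, none of them called. Chgb, a second chromogranin, had medians of 175 and 177 CPM and was not called (0.39, edgeR adjusted p = 0.471). Of the Notch pathway, only 5 of 23 genes could be tested, and Hes6, an antagonist of the Notch effector Hes1, was called higher (medians 147 and 93.6 CPM, log2 fold change 1.45, SE 0.38, edgeR adjusted p = 0.00665). Against spheroids 11 to 19 alone, where 1.39% of 8897 genes were called higher and 0.562% lower, Calca was the 1 member of the neuroendocrine list that passed.

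**Figure D2:**
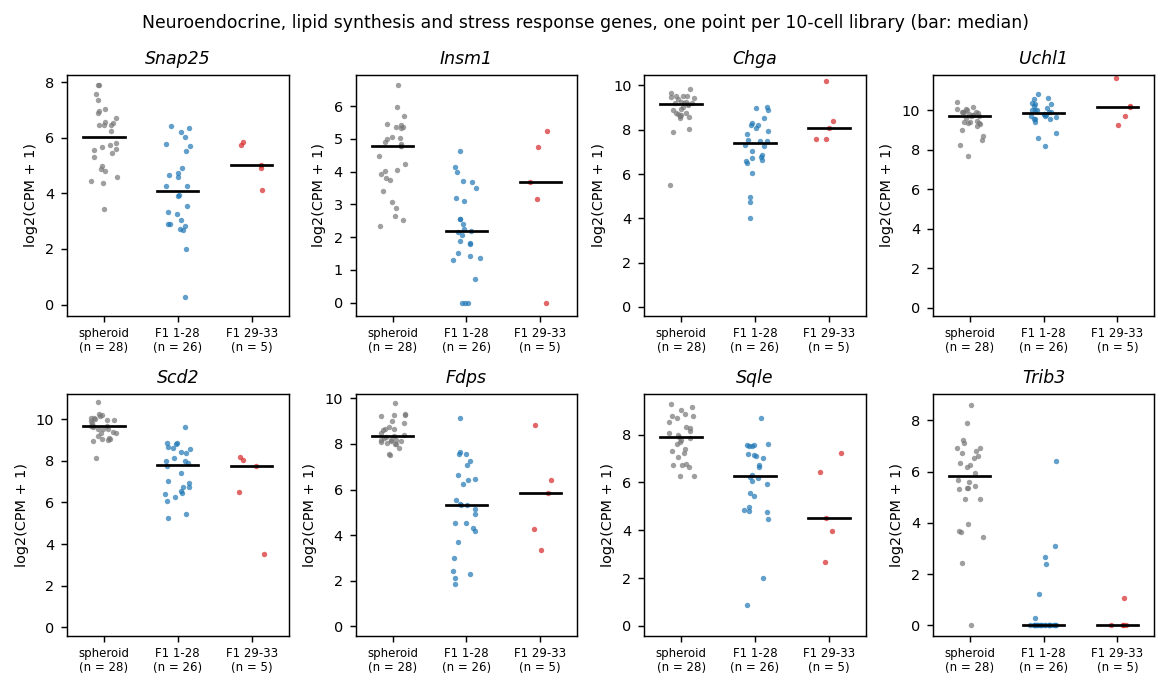
Level of 4 neuroendocrine genes (Snap25, Insm1, Chga, Uchl1), 3 lipid synthesis genes (Scd2, Fdps, Sqle) and the stress gene Trib3 on a log2(CPM + 1) axis, 1 point per library with a bar at the median. Snap25, Insm1, Chga, Scd2 and Trib3 have lower medians in both F1 sets than in spheroids, with ranges that overlap those of the spheroids.

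Of the nuclear-encoded respiratory chain subunits, 22 of 77 were called lower and 4 higher, and the others did not pass the test. The chain passes electrons through complexes I to IV of the inner mitochondrial membrane and drives ATP synthase, and its subunits are encoded partly in the nucleus and partly in mitochondrial DNA. The background was 4.91% of all genes called lower, and the list's median log2 fold change was -0.31 against 0.22 for all genes. The calls fell on 9 of 37 complex I genes, 1 of 3 of complex II, 2 of 10 of complex III and cytochrome c, 6 of 11 of complex IV and 4 of 16 of ATP synthase. Numbers 1 to 28 alone gave 15 lower and 4 higher of 77, with a median of -0.18 against 0.26 for all genes. Numbers 29 to 33 alone gave 17 lower and 1 higher of 78, with a median of -0.96 against -0.17. In the pool-and-split controls 5 of 77 were lower and 7 higher. In the direct test between the sets no subunit was called by edgeR. Summed over the list, F1 libraries held 25702 to 46907 CPM, median 38230, and spheroids 27284 to 72983 CPM, median 55839.

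With limma-voom, 31 of the 77 were lower and 3 higher (18.2% and 5.66% over all genes), and with library totals 29 and 1 (6.03% and 3.57%). The promoters of Cycs and Ndufs5 (RefSeq, GRCm38.p6, 250 bases before to 50 after the start, minus strand, chr6:50566520-50566819 and chr4:123718137-123718436) are shown because both hold a match to GCGCANGCG, the core recognised by nuclear respiratory factor 1, a known regulator of respiratory chain genes. The match is in capitals, 5′ to 3′.
Cycs: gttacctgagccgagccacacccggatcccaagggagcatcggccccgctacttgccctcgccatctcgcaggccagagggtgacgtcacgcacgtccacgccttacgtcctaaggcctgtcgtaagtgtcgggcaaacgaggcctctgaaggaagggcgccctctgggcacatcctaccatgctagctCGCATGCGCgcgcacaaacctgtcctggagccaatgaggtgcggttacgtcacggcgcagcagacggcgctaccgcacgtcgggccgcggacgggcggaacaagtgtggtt
Ndufs5: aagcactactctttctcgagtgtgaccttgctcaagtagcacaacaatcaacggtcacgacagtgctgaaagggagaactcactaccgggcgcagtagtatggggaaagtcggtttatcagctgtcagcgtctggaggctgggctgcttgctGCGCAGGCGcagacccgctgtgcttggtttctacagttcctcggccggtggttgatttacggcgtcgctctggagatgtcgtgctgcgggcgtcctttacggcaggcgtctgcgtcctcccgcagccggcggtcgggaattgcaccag
Searched on both strands, GCGCANGCG was present in 6 of the 19 called-lower subunits with a promoter in the table (31.6%), in 19.0% of 5655 tested genes and in 7.03% of all 27025 genes with promoters of the same length. CCGGAAG, the core of ETS family sites, was present in 3 of the 19, below the 24.4% of tested genes. TCACNCCAC, a sterol response element core, was present in 0 of the 19 and in 1.29% of tested genes. These matches describe the promoters only.

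Cox7c, a small subunit of cytochrome c oxidase (complex IV), ranged from 148 to 671 CPM in spheroids, median 339. Numbers 1 to 28 ranged from 17.2 to 258 CPM, median 80.3, and numbers 29 to 33 held 168, 27.8, 116, 189 and 120.1 CPM. In 26 F1 libraries it lay below every spheroid library (log2 fold change -1.77, SE 0.21, edgeR adjusted p = 1.08e-09). The folds in numbers 1 to 28 and 29 to 33 were -1.71 and -1.75. Uqcrb, a complex III subunit, fell from a median of 1063 to 261 CPM (-1.60, SE 0.26, edgeR adjusted p = 8.16e-06), and numbers 29 to 33 held 437, 158, 272, 471 and 156 CPM. Cycs, which encodes the electron carrier cytochrome c, fell from 319.5 to 98.5 CPM, and numbers 29 to 33 held 269, 38.5, 110.1, 79.1 and 123 CPM (-1.33, SE 0.25, edgeR adjusted p = 6.92e-05). Ndufs5, a complex I subunit and the most abundant of these, fell from 10242 to 4175 CPM (-0.92, SE 0.19), with a larger fold in numbers 29 to 33 (-1.95) than in numbers 1 to 28 (-0.72), a difference that did not pass the direct test (edgeR adjusted p = 0.186). Ndufab1, Cox7b, Usmg5 and Cox6c fell by 1.62, 1.18, 1.21 and 1.12 on the log2 scale, and each was called in both sets. The 4 called higher included Cox7a2l, a factor that links complexes III and IV (medians 315 and 137 CPM, 1.67, SE 0.28), and Atp5b and Atp5a1, the beta and alpha subunits of the ATP synthase head (0.60 and 0.64).

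Mitochondrially encoded transcripts were also lower, to a degree that differed between the sets. Of 12 tested genes, 9 were called lower and none higher by edgeR (10 and 0 at an unadjusted p under 0.05, 11 and 0 with limma-voom, 10 and 0 with DESeq2). mt-Nd3, a complex I subunit, ranged from 868 to 4291 CPM in spheroids and from 72.2 to 861 CPM in F1 numbers 1 to 28, and stood at 695, 822, 581, 462 and 723 CPM in numbers 29 to 33. The groups did not overlap (log2 fold change -2.29, SE 0.24, edgeR adjusted p = 1.98e-11). mt-Nd6 fell by 2.60 (SE 0.29) and mt-Nd1 by 0.88 (SE 0.22), and mt-Nd1, mt-Nd3 and mt-Nd6 were called in numbers 29 to 33 alone. mt-Co3, a complex IV subunit, had a median of 19746 CPM in spheroids and 869 CPM in numbers 1 to 28, but 15942, 10546, 14592, 10375 and 17680 CPM in numbers 29 to 33. It was higher in numbers 29 to 33 by 2.64 (SE 0.59, edgeR adjusted p = 0.0396). Gm28438, a nuclear copy of part of this gene on chromosome 1, had a median of 225 CPM in numbers 1 to 28 and of 0 in both other sets, and the sum of the pair still differed, with medians of 1380.0 and 14592 CPM.

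Called-lower respiratory subunits had short transcripts, with a median length of 632.5 bases against 747.5 bases for all 77 subunits tested and 2601 bases for all protein-coding genes tested. In the shortest 20% of protein-coding genes the median log2 fold change was 0.06, against 0.21 to 0.28 in the longer length classes. In numbers 29 to 33 it was -0.30 against -0.14 to -0.03. The part of transcript length in the respiratory chain result was not tested.

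**Figure D3:**
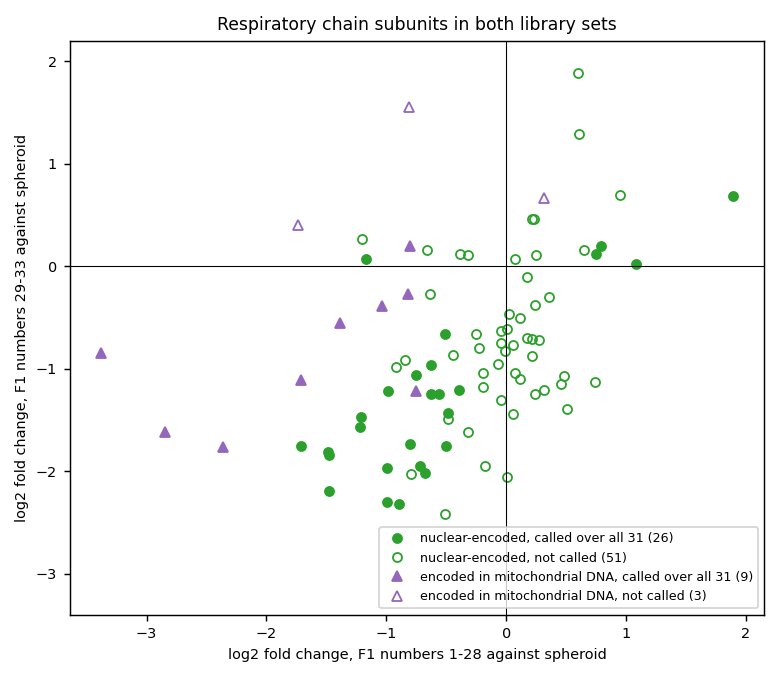
Log2 fold change against spheroids of respiratory chain subunits in F1 numbers 1 to 28 (x axis) and numbers 29 to 33 (y axis). Circles are nuclear-encoded and triangles mitochondrially encoded genes, filled where called over all 31 F1 libraries. Most filled circles lie in the lower left, and mt-Co3 is the triangle farthest left.

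The cholesterol and fatty acid synthesis list had a median below that of all genes in both sets, with 5 genes called lower in each. The pathway builds cholesterol from acetyl-CoA and makes and desaturates fatty acids, and cells raise it when sterols are scarce. Of 32 tested genes 5 were called lower and none higher by edgeR (7 and 1 at an unadjusted p under 0.05, 17 and 0 with limma-voom, where 18.2% of all genes were lower, and 7 and 0 with DESeq2), with a median log2 fold change of -0.77 against 0.22 for all genes. Numbers 1 to 28 gave 5 lower of 32, median -0.65, and numbers 29 to 33 gave 5 lower of 38, median -1.19. The summed list held 699 to 2397 CPM in F1 libraries, median 1407, and 2004 to 5926 CPM in spheroids, median 2969, and 24 of 31 F1 libraries lay below every spheroid library, 4 of them in numbers 29 to 33.

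Scd2, a fatty acid desaturase, ranged from 278 to 1821 CPM in spheroids, median 809, and had a median of 215 CPM in F1 colonies, with 259, 89.5, 294, 10.4 and 212 CPM in numbers 29 to 33 (log2 fold change -1.45, SE 0.26, edgeR adjusted p = 3.76e-05). Fdps, which makes farnesyl pyrophosphate, ranged from 179.8 to 875 CPM in spheroids and had a median of 39.4 CPM in F1 colonies, with 56.4, 18.5, 83.2, 9.28 and 456 CPM in numbers 29 to 33. In 26 F1 libraries it lay below every spheroid library (-1.89, SE 0.37, edgeR adjusted p = 0.000158). Sqle, the epoxidase that commits squalene to sterols, fell from 235 to 74.7 CPM (-1.17, SE 0.35), and Cyp51, a demethylase later in the route, from 34.0 to 5.17 CPM (-2.16, SE 0.56). Scd2 and Fdps passed the test in both sets, Sqle in numbers 29 to 33 alone, and Cyp51 in numbers 1 to 28 alone. With an erythroid score in the model the calls of Scd2, Fdps and Sqle were lost (folds -1.09, -1.51 and -0.47), and with a hepatocyte score those of Fdps and Sqle (-1.30 and -1.08). The part of host RNA in these values was not tested further.

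Genes of the integrated stress response, which cells raise when amino acids or protein folding fail, had a median below that of all genes. Of 26 tested, 3 were called lower and none higher by edgeR (7 and 1 at an unadjusted p under 0.05, 10 and 0 with limma-voom, 5 and 0 with DESeq2), with a median of -0.45. Over all genes 4.91% were called lower by edgeR and 18.2% by limma-voom. Trib3, a pseudokinase induced by the factor ATF4, was at a median of 55.7 CPM in spheroids and of 0 in F1 colonies (log2 fold change -4.43, SE 0.85, edgeR adjusted p = 0.000119), and of numbers 29 to 33 only number 29 had any counts, 1.07 CPM. In the pools it was not called (-1.77, edgeR adjusted p = 0.231), nor were Asns and Slc7a11 (-0.35 and 0.28). Asns, asparagine synthetase, fell from 505 to 129.8 CPM (-0.98, SE 0.33, edgeR adjusted p = 0.0381), with 280.4, 116, 209, 175 and 284 CPM in numbers 29 to 33. It was not called in numbers 1 to 28 alone (edgeR adjusted p = 0.0912). Slc7a11, the cystine importer, had a median of 1.35 CPM in F1 colonies and of 2.13 CPM in spheroids, with up to 321 CPM in spheroids, and limma-voom did not call it (adjusted p = 0.129). The metallothionein genes Mt1 and Mt2 fell by 0.73 and 0.76, and with the erythroid term their folds were 0.04 and 0.15. Mt1 kept its direction but lost its call in 12 other alternative fits, and Mt2 in 11.

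Some protein synthesis factors, glycolytic enzymes and chaperones rose, to an extent that depended on the scaling. Of 40 translation factors 11 were called higher (background 7.73%) and none lower by edgeR (14 and 3 at an unadjusted p under 0.05, 12 and 1 with DESeq2), with a list median of 0.30 against 0.22 for all genes. With library totals 4 were higher and 1 lower (3.57% and 6.03% over all genes), and with limma-voom 7 were higher and 7 lower (5.66% and 18.2%). Eef1a1, the factor that brings aminoacyl-tRNA to the ribosome, had a median of 4266 CPM in F1 colonies and 2579 CPM in spheroids, and numbers 29 to 33 held 5328, 6188, 3710, 5504 and 5229 CPM. Its range overlapped that of spheroids, 1104 to 6496 CPM (log2 fold change 0.99, SE 0.15, edgeR adjusted p = 1.32e-06). Eef1d rose by 1.64 (SE 0.28), Eef2 by 1.08 (SE 0.21) and Eef1g by 0.99 (SE 0.16). Eef1a1, Eef1d and Eef2 were also called in numbers 29 to 33.

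Of 28 glycolysis and hypoxia genes 6 were called higher and 2 lower (7.73% and 4.91% over all genes). Their median was 0.00, below that of all genes. With limma-voom 4 were higher and 6 lower (5.66% and 18.2% over all genes), and with library totals 3 and 4 (3.57% and 6.03%). Pkm, pyruvate kinase, had medians of 2350 CPM in F1 colonies and 1384 CPM in spheroids (1.18, SE 0.20, edgeR adjusted p = 1.42e-05), and Gapdh 2618 and 1848 CPM (0.94, SE 0.19). In numbers 29 to 33 Pkm stood at 0.24 and Gapdh at 0.15, and edgeR called no glycolysis gene higher there (4 at an unadjusted p under 0.05). The direct test gave -1.04 for Pkm (edgeR adjusted p = 0.385). Ldha and Tpi1 had folds of 0.96 and 0.83. Of 23 chaperone genes 5 were called higher and none lower by edgeR (8 and 1 at an unadjusted p under 0.05, 6 and 0 with DESeq2, 4 and 3 with limma-voom). Over all genes, 16.9% were higher and 10.0% lower at an unadjusted p under 0.05, and 12.4% and 6.98% with DESeq2. Hsp90aa1, the inducible HSP90, had medians of 1345 and 694 CPM (1.00, SE 0.19, edgeR adjusted p = 0.000133) and 1082, 1561, 1540.5, 2668 and 1312 CPM in numbers 29 to 33, where it was called too. Cct5, a subunit of the chaperonin that folds actin and tubulin, rose by 0.70 (SE 0.18) and by 1.06 in numbers 29 to 33. Hsp90ab1 rose by 0.88 (SE 0.18). Hspa8 was called over all 31 (0.73) but stood at -0.00046 in numbers 29 to 33.

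Actg1, cytoplasmic gamma-actin, stood between 754 and 3839 CPM in spheroids, median 1269. It stood between 527 and 6887 CPM in numbers 1 to 28, median 3266, and at 3774, 4301, 4081, 3171 and 2858 CPM in numbers 29 to 33. The groups overlapped (log2 fold change 1.47, SE 0.15, edgeR adjusted p = 1.98e-11; 1.59 and 1.24 in the sets). Stmn1, the microtubule-destabilising protein stathmin, had medians of 4343 and 1973 CPM and held 4194, 4057, 4266, 6300 and 4343 CPM in numbers 29 to 33 (1.54, SE 0.16, edgeR adjusted p = 3.64e-11; 1.71 and 1.09 in the sets). Of 33 actin cytoskeleton genes 8 were called higher and 2 lower (7.73% and 4.91% over all genes), with a list median of 0.49. With limma-voom 3 were higher and 4 lower (5.66% and 18.2% over all genes), and with library totals 3 and 3 (3.57% and 6.03%). Actb rose by 1.36 (SE 0.29) and the actin cross-linker gene Flna by 1.10 (SE 0.29), and neither was called in numbers 29 to 33 (0.75 and 0.93). Tuba1b, an alpha-tubulin, rose by 0.78 (SE 0.19) over all 31 and stood at 0.00 in numbers 29 to 33.

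Lysosomal genes gave 7 called higher and 1 lower of 41, with a median of 0.37. Library totals gave 3 and 1, and limma-voom 2 and 7. Over all genes edgeR called 7.73% higher and 4.91% lower, library totals 3.57% and 6.03%, and limma-voom 5.66% and 18.2%. The limma-voom counts of the list were near the latter shares. Ctsz, the lysosomal protease cathepsin Z, ranged from 52.3 to 1464 CPM in spheroids, median 536, and from 683 to 4639 CPM in numbers 1 to 28, median 1708. Numbers 29 to 33 were narrower, at 1154, 1555, 1443, 1488 and 1356 CPM. In 20 F1 libraries it was above every spheroid library (log2 fold change 1.97, SE 0.22, edgeR adjusted p = 1.05e-10), and in numbers 29 to 33 the fold was 1.07 (edgeR adjusted p = 0.0609). Psap, the precursor of the saposins that help break down sphingolipids, had medians of 224 and 85.2 CPM and was called in both sets (1.55, SE 0.26; numbers 29 to 33 at 428, 712, 341, 265 and 141 CPM). Ctsd had medians of 62.7 and 29.3 CPM (2.28, SE 0.59). Macrophages are rich in these proteases. The macrophage markers were higher in F1 libraries, as given above, and their part in the lysosomal values was not tested.

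Among genes of division, the mitosis list had a median below that of all genes. Of 49 replication and S phase genes 4 were called higher and 2 lower (median 0.12), and of 49 mitosis and spindle genes edgeR called none higher and 3 lower (1 and 11 at an unadjusted p under 0.05, 1 and 5 with DESeq2, 0 and 19 with limma-voom), with a median of -0.32 against 0.22 for all genes and 38 of 49 below that value. Over all genes edgeR called 7.73% higher and 4.91% lower, and limma-voom 5.66% and 18.2%. In numbers 29 to 33 the mitosis median was -0.15 against -0.17 for all genes, with 24 of 50 below and none called by edgeR (2 higher and 2 lower at an unadjusted p under 0.05). Pcna, the sliding clamp of DNA polymerases, ranged from 161 to 667 CPM in spheroids, median 290.4, and from 3.35 to 101 CPM in numbers 1 to 28, median 48.4. These ranges did not overlap. Numbers 29 to 33, at 337, 211, 127, 69.3 and 96.9 CPM, partly entered the spheroid range, and their own fold was -1.06 (edgeR adjusted p = 0.0987). Over all 31 the fold was -2.13 (SE 0.26, edgeR adjusted p = 3.13e-09), and -1.74 with reads of the pseudogene copies added to Pcna. Rfc2, a subunit of the loader that places this clamp, rose instead. It had medians of 502 and 175 CPM (2.08, SE 0.32, edgeR adjusted p = 2.63e-06), and numbers 29 to 33 held 289.6, 1489, 502, 1070 and 338 CPM. Lig1, the ligase that joins Okazaki fragments, rose by 1.23 (SE 0.27). Cks2, Top2a and Bub1, which act in mitotic entry, chromosome untangling and the spindle checkpoint, fell by 1.15, 0.94 and 2.04, and were not called in numbers 29 to 33. None of the 3 was called in the pools by edgeR (Cks2 had an unadjusted p under 0.05), where Cks2 stood at -1.41 and the other two were higher in F1 pools, Top2a at 0.34 and Bub1 at 0.77. The proliferation marker Mki67 had medians of 507 and 554 CPM and was not called (0.27, edgeR adjusted p = 0.582).

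Over all genes 7.73% were called higher and 4.91% lower. Chromatin proteins gave 5 higher and 3 lower of 36 (13.9% and 8.33%), splicing and RNA-binding proteins 2 and 7 of 55 (3.64% and 12.7%), the ubiquitin and proteasome list 2 and 3 of 49, and amino acid and nucleotide metabolism 5 and 1 of 38. With limma-voom these 4 lists gave 2 higher and 7 lower, 0 and 13, 1 and 10, and 4 and 10, beside 5.66% higher and 18.2% lower over all genes. With library totals they gave 1 and 4, 0 and 9, 0 and 6, and 2 and 1, beside 3.57% and 6.03%. The summed splicing list lay below every spheroid library in 18 of 31 F1 libraries, all of them in numbers 1 to 28. The list's median log2 fold change was -0.06 in numbers 1 to 28, below the 0.26 of all genes there. In numbers 29 to 33 it was 0.12, above the -0.17 of all genes. The rest of the genes taken by the naming rule had various roles. Pebp1, an inhibitor of RAF kinase, rose from 396 to 1124 CPM (1.77, SE 0.22), Noct, a circadian-controlled phosphatase of NADPH, from 925 to 2038 CPM (1.63, SE 0.23), Mrpl37, a mitochondrial ribosomal protein gene, from 101 to 367 CPM (2.04, SE 0.30) and Nme2, a nucleoside diphosphate kinase, from 962 to 2029 CPM (1.37, SE 0.21). Of these only Mrpl37 was called in numbers 29 to 33 (2.27, against 0.92, 0.31 and 0.36 for Pebp1, Noct and Nme2). Rhox2h, of the X-linked reproductive homeobox cluster, was detected in 31 of 31 F1 and 18 of 28 spheroid libraries, with medians of 36.4 and 0.913 CPM (4.28, SE 0.69), but its copies in the cluster are nearly identical and reads may be split among them. AC149090.1, on an unplaced scaffold, rose by 1.56 (SE 0.25). Eny2, shared by the SAGA and TREX-2 complexes, fell from 481 to 72.0 CPM (-1.92, SE 0.31) and Ppia, cyclophilin A, from 4974 to 1819 CPM (-1.11, SE 0.19), neither being called in numbers 29 to 33 (-1.24 and -0.83). Exons of Ctsz, Krt8, Rfc2, Uqcrb and Eny2 overlap a gene on the other strand, and the sources used here do not say whether counting used strand.

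Few immune-related genes could be tested. Of 40 interferon response genes 5 were tested, and edgeR called none, also at an unadjusted p under 0.05, while limma-voom called 1 lower and DESeq2 called 0. Of 13 tested genes of MHC class I and antigen processing 3 were called higher in all 31 (H2-Q4, Psme1 and Tapbp), 2 higher and 2 lower with limma-voom, and none by edgeR in numbers 29 to 33 (4 higher and 1 lower at an unadjusted p under 0.05). H2-Q4 had medians of 2.76 and 1.31 CPM (2.02, SE 0.47, edgeR adjusted p = 0.00219) and has close paralogues. Psme1, a proteasome activator, had a lower median in F1 colonies (163 against 182 CPM) despite its call, with a highest F1 value of 3515 CPM, and limma-voom did not call it (0.37, adjusted p = 0.482). Of 8 tested immediate early genes edgeR called none, also at an unadjusted p under 0.05, while limma-voom called 3 lower and DESeq2 called 0. In the fit of all 31 libraries no T and NK cell, B cell or neutrophil marker was abundant enough to be tested. In the fit of numbers 29 to 33 alone 1 marker of each was tested, and edgeR called none (1 B cell marker was lower at an unadjusted p under 0.05).

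The ribosomal protein list had medians of opposite sign in the sets. Over all 31 libraries edgeR found 23 of 81 higher and 5 lower (7.73% and 4.91% over all genes), median 0.32. Library totals gave 17 and 16 (3.57% and 6.03%). The set of 26 gave 38 higher and 5 lower (median 0.46), and the set of 5 gave 1 higher and 21 lower (median -0.69). Of the 28 called over all 31 libraries, 20 had the same direction in numbers 29 to 33, 6 of them called there, and 8 the opposite. Set against numbers 1 to 28, numbers 29 to 33 had 6 of 81 called lower (Rplp1, Rplp2, Rpl32, Rpl26, Rps15 and Rpl41) against a background of 0.102%. Of these 6, none was called by edgeR without number 29 or without number 30 (all 6 had an unadjusted p under 0.05), 2 (Rpl41 and Rplp1) without number 31 or without number 33, and 5 without number 32, with folds between -2.37 and -1.39 throughout. Rpl41 had a median of 10058 CPM in numbers 1 to 28 and stood at 2205, 2582, 4719.5, 7436 and 3933 CPM in numbers 29 to 33, against 6905 CPM in spheroids. The summed list held 194606 to 234691 CPM in numbers 29 to 33, medians 204195, 291129 and 273880 CPM in numbers 29 to 33, 1 to 28 and spheroids.

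**Figure D4:**
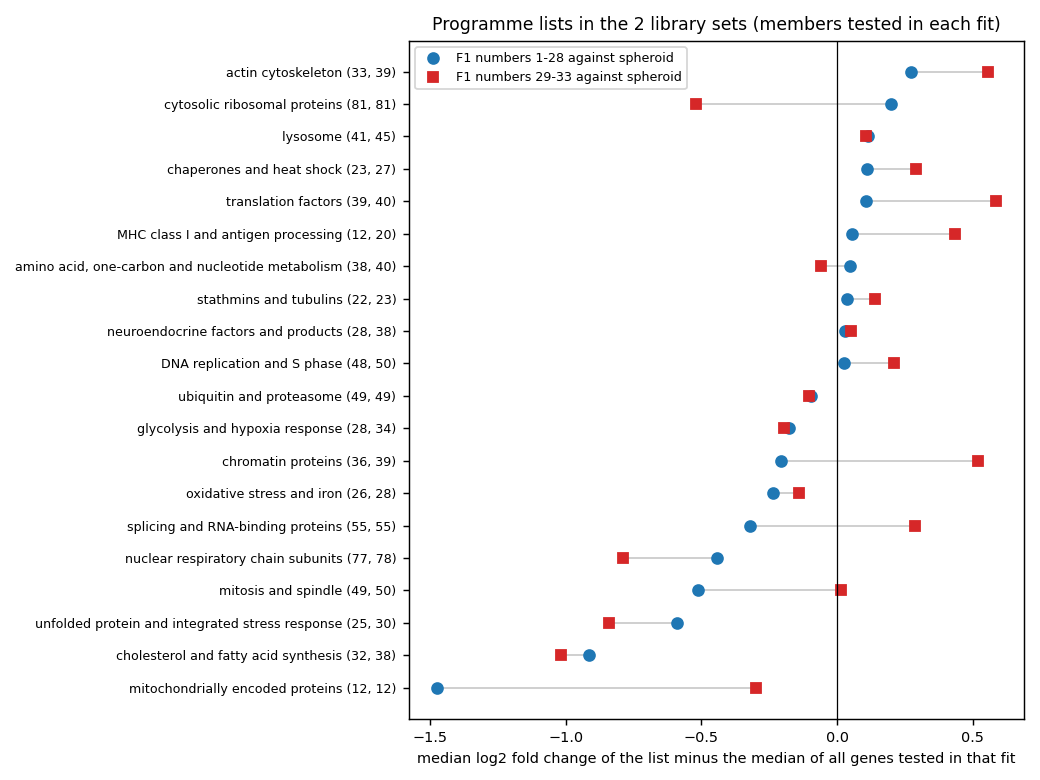
Median log2 fold change against spheroids of 20 gene lists, less the median of all genes tested in the same fit, for F1 numbers 1 to 28 (circles) and 29 to 33 (squares), with the members tested in each fit in brackets. Respiratory chain, lipid synthesis and stress response lists lie left of 0 in both sets, while the ribosomal protein list lies on opposite sides.

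**Figure D5:**
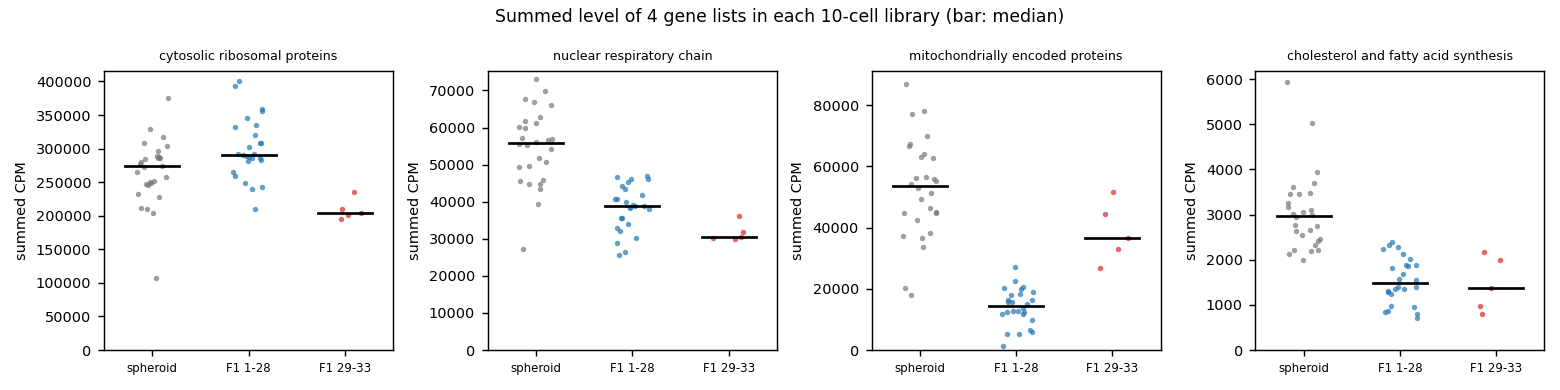
Summed level of 4 lists, in CPM, 1 point per library with a bar at the median. Numbers 29 to 33 lie low for ribosomal proteins and closer to spheroids than to numbers 1 to 28 for mitochondrially encoded genes, and both F1 sets lie low for nuclear respiratory chain and lipid synthesis genes.

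Between hosts, 11.2% of 7064 genes were called higher in F1 than in nude liver colonies and 7.98% lower. Of 77 nuclear respiratory chain genes 37 were higher in F1 colonies and 2 lower, and their summed medians were 38230 CPM in F1 colonies, 29684 CPM in nude colonies and 55839 CPM in spheroids. Over all 31 libraries F1 colonies thus stood between the other groups. The sets differed, with medians of 38864 CPM in numbers 1 to 28 and 30553 CPM in numbers 29 to 33, close to nude colonies. In this contrast the median fold was 0.63 in the shortest 20% of protein-coding genes and -0.05 in the longest 20%, and the part of length in the respiratory chain difference was not tested. Of 26 lipid synthesis genes 2 were higher and 1 lower. Nov, Krt8 and Calca had nude medians of 22.3, 284 and 4.48 CPM and were not called between hosts. Lgals1 was higher in F1 than in nude colonies by 0.92 (edgeR adjusted p = 0.0292) and Stmn1 by 1.53 (edgeR adjusted p = 4.7e-10). Both liver groups have the spheroids as their only culture control, so their changes against spheroids are not independent.

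The pool-and-split controls gave 8.94% of 7249 genes higher and 2.65% lower in F1 pools against spheroid pools. Because they are splits of pooled material, these calls measure the spread between splits and do not replicate the captures. Of the 24 genes taken by the naming rule 19 were called there, with Nov at -5.63, Calca at -5.02, Krt8 at 4.67, Cox7c at -1.67 and Stmn1 at 2.12. Nt5e, Id3, Eny2, Ppia and Svil were not called in the pools, with folds of -2.45, -2.89, -0.36, -0.79 and -1.81. The lipid synthesis list gave 4 lower of 31 (median -0.68 against 0.46 for all genes). The respiratory chain list gave 5 lower and 7 higher of 77 (median 0.00).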

How the data were processed

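Expected counts per gene, which the authors deposited as 1 table for 199 libraries, were used; RSEM, Bowtie2 and the build GRCm38 are named in the submitters' processing notes, with GRCh38.p12. The table holds 31581 genes and 92 ERCC rows. Expected counts were rounded to whole numbers, and ERCC rows were left out of library sizes and tests. Coordinates are the table's own. Of its genes 31414 were found in GENCODE M21, and 92.7% of these had identical GRCm38 coordinates. No count is corrected for PCR duplicates.

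Groups come from the sample titles. Each comparison was fitted on its own groups with edgeR 4.0.16 (TMM, filterByExpr, robust quasi-likelihood F test) in R 4.3.3, adjusted over all genes tested; a standard error is the fold over the square root of F. Folds compare TMM-scaled means, while CPM values use gene totals. limma 3.58.1 (voom) and DESeq2 1.42.0 were alternatives. Fits were tested on simulated data. With all 31 libraries a 2-fold change was recovered in 11.9% and a 4-fold change in 65.7% of genes.

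Members and the 26 programme and 11 marker lists were chosen with earlier results of these data known. Genes were named by rule: protein-coding, adjusted p under 0.05, a log2 fold of at least 1, a mean of at least 20 CPM, the same sign in both library sets, outside erythroid, hepatocyte, ribosomal and mitochondrial genes, the 12 smallest adjusted p in each direction, plus called list members (up to 6 per list and direction) and the genotype genes. Ndufs5, Cox6c, Krt18, Chgb, Mki67 and the ribosomal genes were named after their values were seen. The list of nuclear-retained noncoding RNAs had no tested member. Between libraries of 1 group the lowest chi-squared per degree of freedom was 78.4 (genes with at least 20 summed counts), so none was treated as a duplicate. Some results are not reported here.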

Additional observations from a re-analysis of the deposited data

Results flagged for a closer look

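Among genes taken by the naming rule, the F1 libraries 29 to 33 held 1 library far from the other 4 for 6 of the 24 genes. These were number 32 for Stmn1 (6300 CPM), Pebp1 (1259 CPM) and Nme2 (2895 CPM), number 31 for Rhox2h (105 CPM), and number 29 for Calca (39.7 CPM) and Dnajc12 (46.2 CPM), each the highest of the 5. For normally distributed values about 1 in 20 such groups would be marked. The rate for CPM values of these captures was not computed, so the 6 of 24 cannot be set against chance.

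Of the same 24 genes, 10 differed between F1 and nude liver colonies in edgeR's test of the hosts. Over all genes 11.2% were called higher in F1 colonies and 7.98% lower. The 24 were chosen by values of the same F1 libraries, so they are not a neutral set for this count. Actg1, Stmn1, Noct, Lgals1, Rhox2h, Uqcrb, Eny2 and Ppia were higher in F1 colonies, by 0.62, 1.53, 0.90, 0.92, 2.89, 1.46, 1.40 and 1.18 on the log2 scale. AC149090.1 and Svil were lower, at -0.71 and -1.92. Uqcrb, Eny2 and Ppia were lower in F1 colonies than in spheroids, and nude colonies were lower still, with medians of 103, 32.1 and 1176 CPM. Svil was lower in F1 colonies than in both other groups (nude median 8.91 CPM).

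Between F1 libraries 29 to 33 and 1 to 28, mt-Co3 was higher in the former by 2.64. The ribosomal protein genes Rplp1, Rplp2, Rpl32, Rpl26, Rps15 and Rpl41 stood there at -1.61, -1.60, -1.72, -1.60, -1.56 and -1.997.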

How the results depend on the processing

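The 924 calls became 1743 with limma-voom, 1417 with DESeq2, 5072 of 19000 genes with no filter, 523 with the erythroid score in the model, 379 with F1 numbers 29 to 33 alone and 174 against spheroids 11 to 19 alone. Every other setting gave a count within 1.5 times of 924, although the share called higher, 61.1%, was 37.2% with library totals, 23.8% with limma-voom, 77.2% with the erythroid term, 71.3% with a filter at 10 CPM, 71.3% against spheroids 11 to 19, 47.4% with detected genes in the model and 77.1% in pools. Leaving out 1 of numbers 29 to 33 gave 165 to 382 calls against spheroids, the lowest without number 30, and 9 to 28 calls against numbers 1 to 28, 15 without number 29 and 9 without number 30. RLE scaling gave 43 there. The causes were not tested.

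Replicate numbers are shared by 26 pairs. Same-numbered libraries did not deviate together (median correlation 0.00, range -0.22 to 0.14, 1 pair over 0.1, 3 of 26 best with their own number). A replicate block over these numbers gave 902 calls, 31.3% of them higher, against 937 and 67.2% for the same libraries without it.

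Of the 24 genes named by rule, 11 kept their call in every fit that tested them. The remaining 13 kept their direction, which the naming rule itself required in both library sets. Folds that changed sign were Snap25 (0.40), Slc7a11 (0.28), Top2a (0.34) and Bub1 (0.77) in pools, Vim (-1.06), Mt1 (0.035) and Mt2 (0.15) with the erythroid term, Vim (-0.014) in F1 libraries with little hepatocyte RNA, and Elavl3 (-0.15), Pcsk1n (-0.30), Hspa8 (-0.00046), Rplp1 (-0.86), Rpl32 (-1.19), Rps15 (-0.64) and Rpl41 (-1.03) in F1 numbers 29 to 33. In simulated data with all 31 libraries a 2-fold change was recovered in 11.9% of genes, so most differences of that size would be missed. The simulation took its spread from the spheroid libraries alone and changed no gene of the lowest levels.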
